A study of Bos taurus with 10 samples.

Results

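The 9 genes described here, IL1A, IL1B, IL1RN, IL6, IL18, IL33, TNF, LIF and CSF1, encode cytokines and growth factors of inflammation that epithelial cells can make themselves. They were taken by name, whatever their values, from the 26,804 genes of a transcriptome table of bovine (Bos taurus) oviductal organoids. The organoids were grown from luminal epithelial cells scraped from diestrus oviducts of abattoir cattle whose age is not given in the sources used here. After growth at 37 °C and transfer to a synthetic matrix they spent the final day of culture at 42 °C (heat stress, HS) or at 37 °C (thermoneutral). Each temperature had 5 replicates, labelled A to E, and each replicate was a pool of 2 animals whose oviducts were divided between both temperatures. All cultures held the same medium, with EGF, FGF-10, Noggin, nicotinamide, N-acetyl-L-cysteine, the TGFβ/ALK inhibitor A83-01, the p38 inhibitor SB202190 and the ROCK inhibitor Y27632. Every level below was therefore measured with p38, a kinase that stabilises many cytokine transcripts, under an inhibitor in both groups. The comparison used 42C A, C, D and E against 37C A to E, because the study set aside 1 HS replicate without naming it. This was taken to be 42C B, whose values are given apart. The mean level of the heat shock gene HSPA1A that the paper lists at 42 °C is that of 42C A, C, D and E.

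Cytokines of the IL-1 family are alarm signals of barrier epithelia. IL-1α and IL-33 are held in the cell and act when it is damaged, IL-1β and IL-18 are cut to their active forms by inflammatory caspases, and the IL-1 receptor antagonist, the product of IL1RN, occupies the IL-1 receptor without signalling. IL-6 and LIF act through receptors that share the subunit gp130, TNF is shed from the cell surface, and CSF1 supports macrophages. In the oviduct and uterus such factors are known for their part in defence against infection and in the dialogue of the epithelium with the embryo, LIF in particular.

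Levels are TPM, a transcript's share of its library after correction for transcript length. Differences are 42 °C minus 37 °C in log2(TPM + 1), a scale on which changes of scarce transcripts come out too small, with n = 4 at 42 °C and n = 5 at 37 °C. A gene was called higher or lower where limma gave an adjusted p below 0.05 and a difference of at least 1 in size. Of 12,149 genes that reached 1 TPM in at least 4 of the 9 libraries, 22.9% were called, 15.8% higher and 7.14% lower at 42 °C. For the lists below, counts at an unadjusted limma p below 0.05 are also given. The share of all genes tested at that level was not worked out. Those counts therefore have no background and are not read as a shift of a list. The median difference over all of them was 0.30, so that a difference of 0.30 was the middle of the table and not a position apart. In organoids sequenced whole, fewer cells of a type and less RNA per cell cannot be told apart.

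Of the 9 cytokine genes, 8 reached the level for the test. IL18 was called higher at 42 °C and IL33 was called lower, which is 25.0% of the 8 beside the 22.9% of all genes tested. IL1B was lower in 3 of 4 HS libraries but was not called, and LIF, IL1RN, CSF1, IL1A and TNF were not called. IL6 was close to 0 at both temperatures. All values of one temperature lay beyond those of the other for 2 of the 8 genes (25.0%), against 48.8% of all genes tested. The median difference of the 8 genes was −0.05, against 0.30 for all genes tested.

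**Figure D1:**
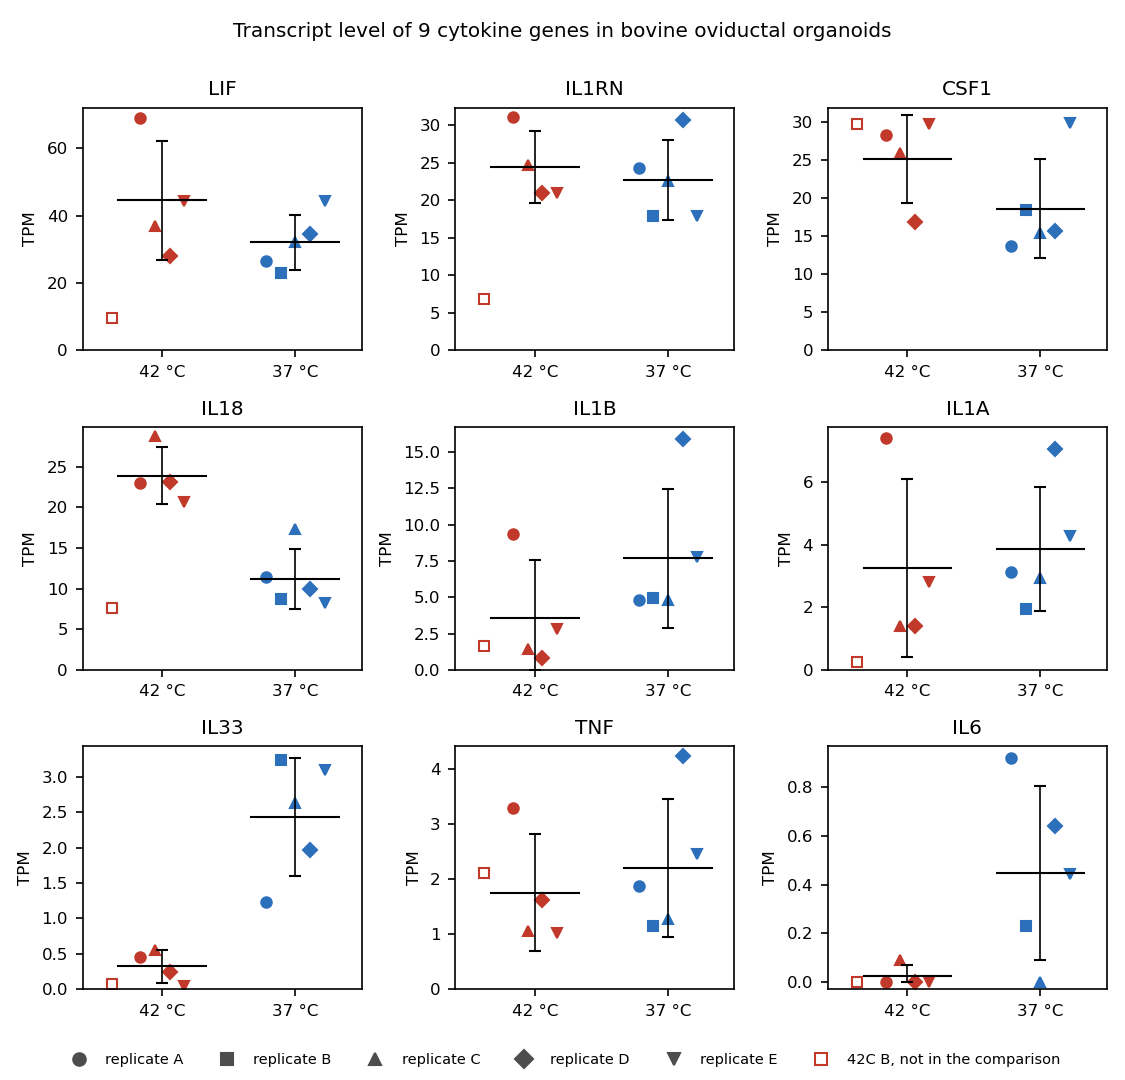
Level of each cytokine gene in TPM (vertical axes, each with its own scale) in the 42 °C libraries (red) and the 37 °C libraries (blue), with the mean and SD as a line and bar (bars end at 0) and the shape giving the replicate letter. The IL18 values at 42 °C (20.6 to 28.8 TPM) lie above, and those of IL33 (0.0390 to 0.548 TPM) below, all 37 °C values, while 42C B, the open square, was not in the comparison.

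Among the IL-1 family cytokines, IL18 (ENSBTAG00000000277), whose protein drives interferon-γ production by lymphocytes, was the only one called higher at 42 °C. Its level was 23.0 TPM in 42C A, 28.8 in 42C C, 23.2 in 42C D and 20.6 in 42C E, against 11.5 TPM in 37C A, 8.70 in 37C B, 17.4 in 37C C, 9.97 in 37C D and 8.28 in 37C E. The groups did not overlap, and 37C C was the thermoneutral library nearest to the HS libraries. The means of 23.9 ± 3.49 and 11.2 ± 3.70 TPM (SD) are 2.14-fold apart, and the difference was 1.07 (SE 0.20, 95% confidence interval 0.64 to 1.51, limma adjusted p = 0.000731). Within each replicate letter the difference was 0.94 for A, 0.70 for C, 1.14 for D and 1.22 for E. The call rests on a difference just above the threshold: it was 0.98 without 42C C and 0.98 without 37C E, and 0.75 and 0.72 after median-ratio scaling and quantile normalization of the libraries. In 42C B IL18 was at 7.56 TPM, below every thermoneutral library, and with all 10 libraries the difference was 0.76 (limma adjusted p = 0.0654).

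IL33 (ENSBTAG00000018347), the nuclear alarm cytokine of epithelial and endothelial cells, was called lower at 42 °C. It stood at 0.459, 0.548, 0.237 and 0.0390 TPM in 42C A, C, D and E, against 1.23, 3.24, 2.63, 1.97 and 3.10 TPM in 37C A to E. The lowest thermoneutral library, 37C A, was above the highest HS library, 42C C. HS organoids averaged 0.321 ± 0.229 TPM and thermoneutral organoids 2.43 ± 0.835 TPM, a difference of −1.36 (SE 0.23, 95% confidence interval −1.87 to −0.85, limma adjusted p = 0.000445), and it was lower in 4 of 4 pairs of the same letter. In 42C B it was at 0.0727 TPM, within the HS values. Because the level is low, the size of the difference follows the value added before the logarithm, being −2.74 with 0.1 added and −0.48 with 5 added, where the call is lost.

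IL1B (ENSBTAG00000001321) encodes the inducible, secreted agonist of the IL-1 receptor. Its level was 9.38 TPM in 42C A, 1.46 in 42C C, 0.783 in 42C D and 2.80 in 42C E, against 4.84 TPM in 37C A, 4.98 in 37C B, 4.85 in 37C C, 15.9 in 37C D and 7.77 in 37C E. The HS libraries C, D and E were below every thermoneutral library, and 42C A was above all of them but 37C D. The means were 3.61 ± 3.94 and 7.67 ± 4.79 TPM, with a difference of −1.12 (SE 0.48, 95% confidence interval −2.17 to −0.07, limma adjusted p = 0.060), so that IL1B was not called. Whether IL1B was called changed with the libraries used and with their scaling. Without 42C A the difference was −1.63 (limma adjusted p = 0.00259) and IL1B was called lower, and without 37C D it was −0.84 (limma adjusted p = 0.136). It was also called lower after median-ratio scaling (−1.37), after quantile normalization (−1.37) and with all 10 libraries (−1.21), 42C B being at 1.66 TPM.

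Over all genes 42C A also stood apart from the other HS libraries. On the first principal component of all 10 libraries, which held 59.0% of the variance, 42C A lay at 0.871, between the other HS libraries (51.5 to 75.0) and the thermoneutral libraries (−50.0 to −44.2). HSPA1A, the inducible heat shock chaperone, reached 1830 TPM in 42C A, 7333 TPM in 42C B and 4615 to 5614 TPM in the other 3 HS libraries, against 402 to 476 TPM at 37 °C. The part of this in the IL1B values was not tested.

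IL1A (ENSBTAG00000010349) encodes the agonist IL-1α, which is active without cleavage. It was at 7.40, 1.41, 1.41 and 2.82 TPM in 42C A, C, D and E, against 3.12, 1.94, 2.92, 7.06 and 4.28 TPM in 37C A to E. The groups overlapped, 42C A being the highest library of the 9 and 42C C and D the lowest. The difference was −0.31 (SE 0.39, 95% confidence interval −1.16 to 0.54, limma adjusted p = 0.501), an interval too wide to place IL1A on either side of 0. In 42C B it was at 0.235 TPM.

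IL1RN (ENSBTAG00000019665), the antagonist of both agonists, was more abundant than either. Its level was 31.1, 24.7, 20.9 and 20.9 TPM in 42C A, C, D and E, against 24.3, 17.9, 22.5, 30.7 and 17.9 TPM in 37C A to E. The groups lay over each other, and 42C A and 37C D were the highest libraries, as for the agonists. Its difference was 0.11 (SE 0.18, 95% confidence interval −0.28 to 0.50, limma adjusted p = 0.608), and its sign changed with the scaling of the libraries. In 42C B IL1RN was at 6.78 TPM, less than in any other library.

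The balance of antagonist to agonist was then set out per library, as ratios of TPM that were chosen after the values had been seen and so carry no test. The IL1RN to IL1B ratio was 3.31 in 42C A, 16.9 in 42C C, 26.7 in 42C D and 7.47 in 42C E, against 5.02, 3.60, 4.64, 1.93 and 2.31 in 37C A to E. Apart from 42C A, and from 42C B at 4.08, the HS libraries had more antagonist transcript per IL1B transcript than any thermoneutral library. For IL1RN to IL1A the groups overlapped, with 4.20, 17.5, 14.8 and 7.42 in 42C A, C, D and E. The thermoneutral libraries had 4.18 to 9.24 for that ratio, and 42C B had 28.8. The IL1B to IL1A ratio was 1.27 in 42C A, 1.04 in 42C C, 0.556 in 42C D and 0.992 in 42C E, against 1.55 to 2.57 in the thermoneutral libraries, all of which had more IL1B than IL1A. These groups did not overlap, but 42C B, which the comparison leaves out, had the highest ratio of all (7.07). Both ratios to IL1A in 42C B rest on an IL1A level of 0.235 TPM, close to 0 and of unknown depth. IL1B and IL1RN were at 1.66 and 6.78 TPM there.

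**Figure D2:**
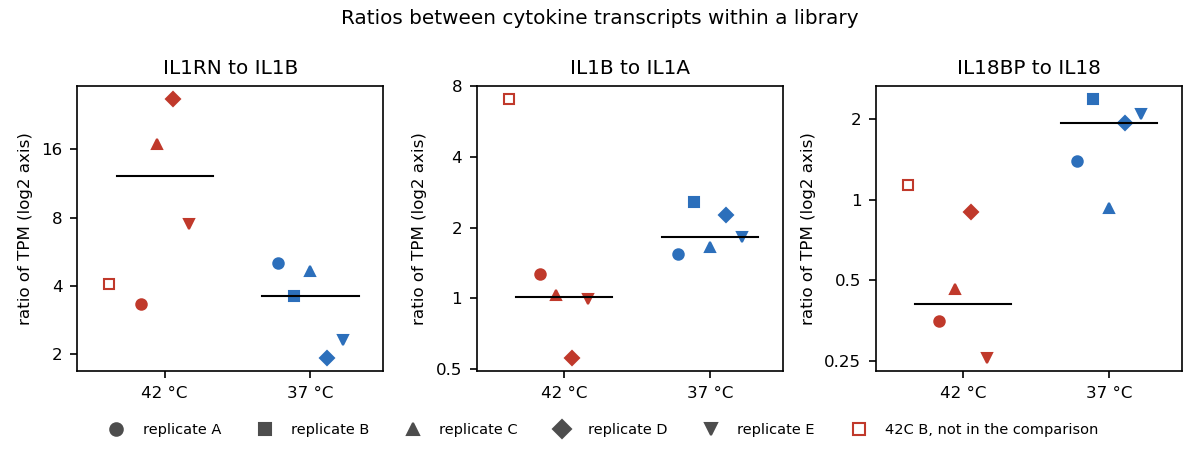
Ratios of TPM between transcripts of the same library (vertical axes, log2) in the 42 °C libraries (red) and the 37 °C libraries (blue), with the group median as a line and the shape giving the replicate letter. The IL1B to IL1A ratio is 0.556 to 1.27 at 42 °C and 1.55 to 2.57 at 37 °C, and the open square is 42C B, which was not in the comparison.

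No receptor of the IL-1 family was called, beside 22.9% of all genes tested. Of 9 receptor and decoy genes in the list, 5 were tested by limma, with a median difference of −0.31, and 2 were lower and none higher at an unadjusted p below 0.05 whatever the size of the difference. IL1R1, the signalling receptor for both IL-1 agonists, averaged 7.79 ± 1.73 TPM in HS and 11.2 ± 1.96 TPM in thermoneutral organoids, a difference of −0.48 (limma adjusted p = 0.0281) that is below the size required for a call. IL1RAP, the shared second chain, stood at 27.6 ± 8.62 and 33.8 ± 4.63 TPM (difference −0.31, limma adjusted p = 0.143). IL1R2, a decoy receptor, stayed under the level for the test, at 0.0767 to 0.832 TPM in the HS libraries compared and at most 0.372 TPM in thermoneutral organoids. In 42C B it was at 2.26 TPM, the highest of the 10 libraries.

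The receptors for the 2 called cytokines were at or next to 0. IL1RL1, the IL-33 receptor, and IL18RAP were listed at 0 in all 10 libraries, and IL18R1 was listed at 0 in all libraries but 37C B (0.0521 TPM). The secreted inhibitor of IL-18 was present: IL18BP was at 8.11, 13.3, 20.9 and 5.26 TPM in 42C A, C, D and E, against 16.1, 20.7, 16.2, 19.3 and 17.4 TPM in 37C A to E, a difference of −0.70 (limma adjusted p = 0.055) that was not called. The IL18BP to IL18 ratio, chosen after the values had been seen, was 0.256 to 0.902 in the HS libraries and 0.930 to 2.39 in the thermoneutral libraries, with 1.14 in 42C B.

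Processing of IL-1β and IL-18 depends on inflammasomes, which recruit caspase-1 through the adaptor encoded by PYCARD. CASP1 itself averaged 0.0273 TPM in HS and 0.255 TPM in thermoneutral organoids, and the sensor gene NLRP3 was listed at 0 in all 9 libraries compared. Other caspase genes of this list were far more abundant. CASP4 averaged 64.65 TPM in HS and 56.4 TPM in thermoneutral organoids and was not called. CASP8 averaged 66.37 and 32.99 TPM without overlap between the groups. Its difference of 0.986 (limma adjusted p = 4.9e-05) was just short of the size required for a call. PYCARD was plentiful, at 63.3 ± 37.3 and 62.9 ± 15.4 TPM (difference −0.11, limma adjusted p = 0.760). Of 13 genes of this list in the table, 7 were tested. By limma none was called higher and 2 were called lower, beside 15.8% and 7.14% of all genes tested. The median difference was 0.20. At an unadjusted p below 0.05, 3 were higher and 2 lower. The 2 genes called lower were GSDMD, the pore protein through which mature IL-1β leaves the cell (0.880 ± 1.13 and 3.86 ± 2.04 TPM, difference −1.41, limma adjusted p = 0.0105), and CAPN1, the large subunit of a calpain, a protease class that cleaves pro-IL-1α (143 ± 69.9 and 311 ± 16.2 TPM, difference −1.22, limma adjusted p = 0.000621). CAPN2, also a calpain gene of this list, went the other way without overlap between the groups. It was at 461 ± 31 and 288 ± 29.1 TPM (difference 0.68, limma adjusted p = 0.000179), below the size required for a call. The GSDMD call was lost with a pseudocount of 5, where its difference was −0.58.

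The other ligands of the IL-1 family that were listed, IL36A, IL36B, IL36G, IL36RN, IL1F10 and IL37, were all under 1 TPM in every library. Downstream of the receptors, 2 of 11 adaptor and kinase genes were called higher by limma and none lower, beside 15.8% and 7.14% of all genes tested. Their median difference was 0.55. At an unadjusted p below 0.05, 7 were higher and 2 lower. IRAK2, a kinase of the receptor complex, was at 5.68 ± 0.900 and 2.16 ± 0.659 TPM (difference 1.09, limma adjusted p = 0.000444), and TAB3, which links TRAF6 to the kinase TAK1, at 22.3 ± 3.08 and 8.98 ± 2.34 TPM (difference 1.24, limma adjusted p = 0.000165). Both calls were lost after median-ratio scaling, after quantile normalization and with a pseudocount of 5, where the difference of IRAK2 was 0.58.

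**Figure D3:**
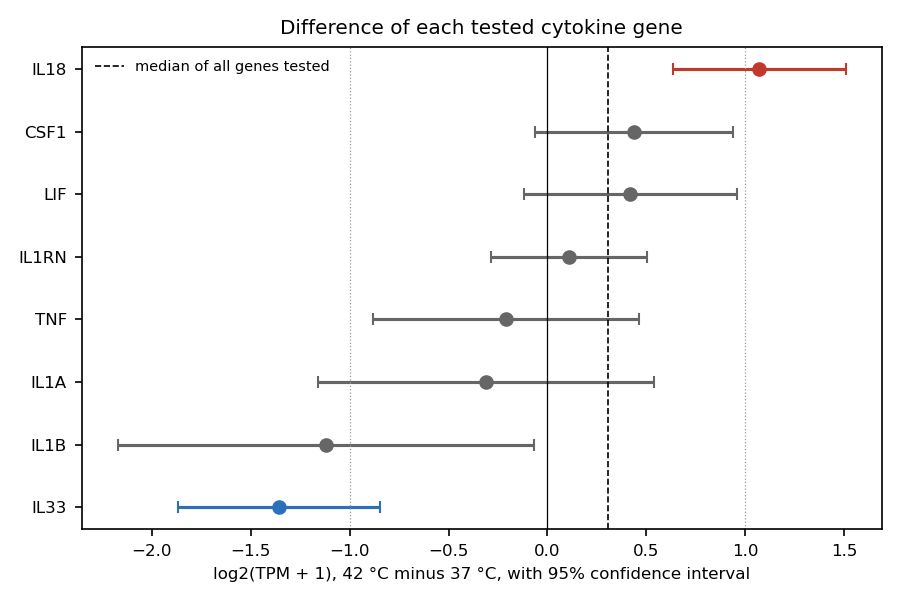
Difference of each tested cytokine gene on the log2(TPM + 1) scale, 42 °C minus 37 °C (horizontal axis), with its 95% confidence interval from limma, IL18 called higher (red) and IL33 called lower (blue). The dashed line is the median of all genes tested (0.30) and the dotted lines are the size required for a call.

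Of the cytokines that signal through gp130, LIF (ENSBTAG00000007424), known for its role in implantation, was the most abundant of the 9 genes at both temperatures. It reached 69.2 TPM in 42C A, 36.9 in 42C C, 28.0 in 42C D and 44.3 in 42C E, against 26.6, 23.0, 32.3, 34.6 and 44.2 TPM in 37C A to E. The ranges overlapped, and between libraries of the same letter LIF was higher in 2, lower in 1 and level in 1. The difference of 0.42 (SE 0.25, 95% confidence interval −0.12 to 0.96, limma adjusted p = 0.157) lay 0.11 above the median of all genes. In 42C B LIF was at 9.50 TPM, the lowest of the 10 libraries.

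IL6 (ENSBTAG00000014921), the classical acute-phase cytokine, was listed at 0 in 42C A, D and E and at 0.0902 TPM in 42C C, against 0.923 TPM in 37C A, 0.231 in 37C B, 0 in 37C C, 0.643 in 37C D and 0.442 in 37C E. It was also listed at 0 in 42C B. IL6 was too low for limma, and an exact two-sided permutation test over the 126 ways to place the libraries gave p = 0.0556 for the difference in mean log2(TPM + 1) of −0.47, where the smallest p possible was 0.00794. Since TPM does not keep the number of reads, the depth behind a value of 0 is unknown.

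Both receptor chains for LIF were called higher at 42 °C. IL6ST, which encodes gp130, was at 76.5, 62.0, 76.5 and 67.6 TPM in 42C A, C, D and E, against 23.9, 22.8, 27.2, 38.2 and 42.8 TPM in 37C A to E, with a difference of 1.204 (limma adjusted p = 0.000231). LIFR, the LIF-binding chain, was at 13.7, 14.3, 15.5 and 14.1 TPM in 42C A, C, D and E, against 3.20, 4.49, 4.81, 7.90 and 9.26 TPM in 37C A to E (difference 1.23, limma adjusted p = 0.00101). Neither receptor overlapped between the groups compared, but in 42C B IL6ST was at 27.0 TPM and LIFR at 7.73 TPM, both within the thermoneutral values. Both calls were lost after median-ratio scaling and after quantile normalization, the IL6ST call also with all 10 libraries and the LIFR call also with a pseudocount of 5. Over all alternatives the lowest difference was 0.87 for IL6ST and 0.86 for LIFR. IL6R was at 3.18 ± 1.13 and 3.40 ± 1.29 TPM (difference −0.05, limma adjusted p = 0.878).

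The lists of this paragraph stand beside 15.8% called higher and 7.14% called lower among all genes tested, with a median of 0.30. Over the list of IL-6 family receptors, 2 of 5 tested genes were called higher by limma and none lower, with a median of 0.05. None was lower at an unadjusted p below 0.05 either. Of the other ligands of this family 2 were tested, with a median of −0.84, and CTF1, the cardiotrophin gene, was called lower (4.49 ± 0.863 TPM in HS and 18.5 ± 3.04 TPM in thermoneutral organoids, difference −1.83, limma adjusted p = 2e-05). Among 12 genes for JAK kinases, STAT factors and their inhibitors 2 were called higher by limma and none lower, with a median of 0.33. At an unadjusted p below 0.05, 6 were higher and 2 lower. The called genes were JAK2, a receptor-bound kinase (difference 1.65, limma adjusted p = 5.5e-05), and PTPN6, a phosphatase that restrains cytokine receptors (1.11, limma adjusted p = 5.8e-05), of which only the PTPN6 call was lost after both scalings, with all 10 libraries and with a pseudocount of 5. SOCS3, the feedback inhibitor of gp130, was at 22.7, 29.9, 23.1 and 40.8 TPM in 42C A, C, D and E, against 41.9, 60.5, 68.7, 50.7 and 70.5 TPM in 37C A to E. Its groups did not overlap and its difference of −0.99 (limma adjusted p = 0.00117) was just short of the size required for a call.

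TNF (ENSBTAG00000025471), which activates NF-kB in neighbouring cells, was low at both temperatures. It was at 3.29, 1.06, 1.62 and 1.03 TPM in 42C A, C, D and E, against 1.87, 1.14, 1.27, 4.24 and 2.46 TPM in 37C A to E, and 42C B had 2.12 TPM. The groups overlapped, with 37C D and 42C A the highest libraries. The difference was −0.21 (SE 0.31, 95% confidence interval −0.88 to 0.46, limma adjusted p = 0.573).

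The TNF receptors were far more abundant than the ligand. TNFRSF1A, the widely expressed receptor, averaged 228 ± 20.4 TPM in HS and 206 ± 14.9 TPM in thermoneutral organoids (difference 0.15, limma adjusted p = 0.186), and TNFRSF1B averaged 56.7 ± 7.23 and 43.0 ± 4.88 TPM (difference 0.39, limma adjusted p = 0.0143, below the size required for a call). In the list of TNF receptors, sheddase and adaptors, 2 of 14 genes were called higher and 1 lower, beside 15.8% and 7.14% of all genes tested. The list had a median of 0.28, and 7 genes were higher and 2 lower at an unadjusted p below 0.05. ADAM17, the protease that sheds TNF, was called higher (82.8 ± 16.7 and 38.7 ± 10.5 TPM, difference 1.09, limma adjusted p = 0.000534), as was BIRC3, an NF-kB target that protects from TNF-induced death (difference 1.02), and FADD, the death-domain adaptor, was called lower (80.8 ± 24.8 and 214 ± 25.8 TPM, difference −1.43, limma adjusted p = 7.8e-05). The ADAM17 and BIRC3 calls were lost after both scalings, with differences of 0.75 and 0.68 at the lowest, and when 37C A or 42C D was left out. The BIRC3 call was also lost when 42C E, 37C B or 37C C was left out, with a pseudocount of 5 and in the fit that pairs libraries of the same letter (0.97), and both calls were lost with all 10 libraries.

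Of 6 other TNF superfamily ligands tested, 2 were called higher by limma and none lower, beside 15.8% and 7.14% of all genes tested. Their median was −0.17. At an unadjusted p below 0.05, 3 were higher and 1 lower. The called genes were TNFSF15 (13.5 ± 8.02 and 4.27 ± 1.72 TPM, difference 1.37, limma adjusted p = 0.00343) and TNFSF9 (13.1 to 33.5 TPM in HS and 7.75 to 12.6 TPM in thermoneutral organoids, difference 1.07, limma adjusted p = 0.00211), both costimulators of lymphocytes. The TNFSF9 call was lost without 37C A, 42C C or 42C E and after both scalings, and with a pseudocount of 5 both calls were lost, TNFSF15 being at 0.93.

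CSF1 (ENSBTAG00000000283), the growth factor of macrophages, stood beside IL1RN and LIF among the more abundant genes. Its level was 28.2, 25.9, 16.9 and 29.7 TPM in 42C A, C, D and E, against 13.7, 18.5, 15.4, 15.7 and 29.9 TPM in 37C A to E. The groups overlapped through 42C D, which was low for its group, and 37C E, which was high. The difference was 0.44 (SE 0.23, 95% confidence interval −0.06 to 0.94, limma adjusted p = 0.113), 0.13 above the median of all genes. Unlike LIF, IL1RN and IL18, which were lower in 42C B than in every other library, CSF1 was at 29.8 TPM there.

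CSF1R, the receptor for CSF1, was listed at 0 in all 10 libraries. Of the other colony-stimulating factors and receptors 3 were tested, 1 was called lower by limma and none higher, beside 7.14% and 15.8% of all genes tested. Their median was −0.16, and none was higher at an unadjusted p below 0.05 either. The called gene was CSF3, which encodes the granulocyte factor G-CSF, at 0.254, 0, 0.459 and 0.194 TPM in 42C A, C, D and E, against 10.9, 3.22, 5.96, 7.25 and 4.93 TPM in 37C A to E (difference −2.53, limma adjusted p = 3.9e-05). The highest HS library was below the lowest thermoneutral library.

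Set beside each other on the TPM scale, the 9 genes formed an abundant and a scarce group. At 42 °C the order of the means was LIF, CSF1, IL1RN, IL18, IL1B, IL1A, TNF, IL33 and IL6. The ranges of neighbours in this order overlapped except at the step from IL18 to IL1B and at the step from TNF to IL33. At 37 °C the order was LIF, IL1RN, CSF1, IL18, IL1B, IL1A, IL33, TNF and IL6, and only the last step, from TNF to IL6, was free of overlap. IL18 and IL1B thus had separate ranges at 42 °C, while at 37 °C IL18 was the higher of the pair in 4 of 5 libraries and IL1B in 37C D. LIF, IL1RN, CSF1 and IL18 together made up 88.1% to 96.2% of the summed TPM of the 9 genes in the HS libraries and 75.3% to 88.2% in the thermoneutral libraries. That sum was 93.0 to 172 TPM in HS, 57.7 TPM in 42C B and 79.7 to 121 TPM in thermoneutral libraries.

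How the genes varied from library to library differed between them. IL1A, IL1B and TNF had the same 3 highest libraries of the 9, 42C A, 37C D and 37C E, and the Pearson correlation on the log2 scale over the 9 libraries was 0.90 for IL1A with IL1B, 0.87 for IL1A with TNF and 0.77 for IL1B with TNF. IL18 and IL33, called in opposite directions, had a correlation of −0.81, and LIF and CSF1 one of 0.75. These are descriptions over 9 libraries that share 2 temperatures and 5 pools of oviducts. Leaving out IL6, the spread within a temperature was widest for IL33 and IL1B at 42 °C, where the highest library was 14.1 and 12.0 times the lowest, and narrowest for IL18 at 42 °C (1.40 times) and IL1RN at both temperatures (1.49 times in HS and 1.71 times in thermoneutral libraries).

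The genes with the pattern most like that of each cytokine were also read out, as the 3 highest Pearson correlations over the 9 libraries among all genes tested. For IL33 these were NUPR1 (0.99), ACSM1 (0.98) and GJB1 (0.98), all called lower at 42 °C. For IL18 they were TBC1D30 (0.98), PITPNM2 (0.97) and AFG3L2 (0.97), for IL1B PBX2 (0.98), GALNT12 (0.98) and ANO8 (0.97), and for IL1A JADE2 (0.97), CREB3L2 (0.97) and GANAB (0.96). TNF was most like SEMA3C (0.97), CYFIP1 (0.94) and MYCBP2 (0.94), and IL1RN most like ARHGEF10L (0.95), EMP3 (0.90) and VWA1 (0.90). LIF was most like SEMA3A (0.94), RNF40 (0.93) and HDAC7 (0.93), and CSF1 most like ARMCX1 (0.96), CEP95 (0.95) and ZBTB46 (0.94). None of the genes named for cytokines other than IL33 was called. These too describe 9 libraries only, and no shared function follows from them.

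For each called cytokine 1 neighbouring gene reached the level for the test, and neither shared the call. In the RefSeq gene order, in which IL1A and IL1B are separated by a single locus, RANBP6 lies next to IL33 and was called higher (26.6 ± 3.57 and 12.0 ± 1.32 TPM, difference 1.09, limma adjusted p = 6.87e-05). SDHD, next to IL18, had a difference of −0.51 (limma adjusted p = 0.00812). PSD4, next to IL1RN, had one of 0.87 (limma adjusted p = 0.000428), below the size required for a call.

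Regulators that act on cytokine transcripts were examined as a list of 11 genes for cytokine mRNA stability and p38 signalling. Of these, 2 were called higher and 1 lower, beside 15.8% and 7.14% of all genes tested, with a median of 0.46. At an unadjusted p below 0.05, 7 were higher and 1 lower. ZC3H12A, whose product regnase-1 degrades the IL6 transcript in mice, was called lower (11.4 ± 3.32 TPM in HS and 33.7 ± 7.23 TPM in thermoneutral organoids, difference −1.50, limma adjusted p = 0.000139). RC3H1 and RC3H2, which encode the roquin proteins that bind TNF and other transcripts, were called higher (differences 1.48 and 1.42, limma adjusted p = 0.000157 and 0.000102). These 3 calls held under each of the 18 alternatives that were run.

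Chemokines, which like these cytokines are targets of the transcription factor NF-kB, and the NF-kB genes themselves were counted as related lists. Of 10 chemokine genes tested 6 were called lower by limma and none higher, beside 7.14% and 15.8% of all genes tested. Their median was −1.60, and none was higher at an unadjusted p below 0.05 either. CXCL3, a neutrophil attractant, fell to 22.2 ± 14.3 TPM in HS organoids, against 250 ± 46.2 TPM in thermoneutral organoids (difference −3.59, limma adjusted p = 1.2e-05), with CXCL5 (−2.83), CCL20 (−2.30) and CXCL2 (−2.17) next. Of 16 genes for NF-kB factors and inhibitors 3 were called higher by limma and none lower, beside 15.8% and 7.14% of all genes tested. Their median was 0.33, against 0.30 for all genes tested. At an unadjusted p below 0.05, 8 were higher and 3 lower. The called genes were REL, a subunit (difference 1.95), NFKBIE, an inhibitor (1.55), and CYLD, a deubiquitinase that limits the pathway (1.196). The CYLD call was lost after both scalings and with all 10 libraries. In the fit that pairs libraries of the same letter NFKBIZ, an atypical inhibitor protein of this family, was called lower (−1.04, limma adjusted p = 0.0021), against −0.91 without the pairing.

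Over all 13 lists of receptors, processing, signalling and related ligands, 102 of 137 genes in the table were tested, and 15 were called higher and 12 lower, with a median difference of 0.14. Without chemokines and NF-kB genes, 12 of 76 were called higher and 6 lower, or 23.7%, beside 22.9% of all genes tested. After median-ratio scaling 6 of the 102 were higher and 17 lower, and after quantile normalization 6 were higher and 18 lower. These scalings brought the median of all genes from 0.30 to −0.01 and 0.07. Relative to the median of all genes, IL18 stood at 0.77, IL1B at −1.42 and IL33 at −1.66.

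**Figure D4:**
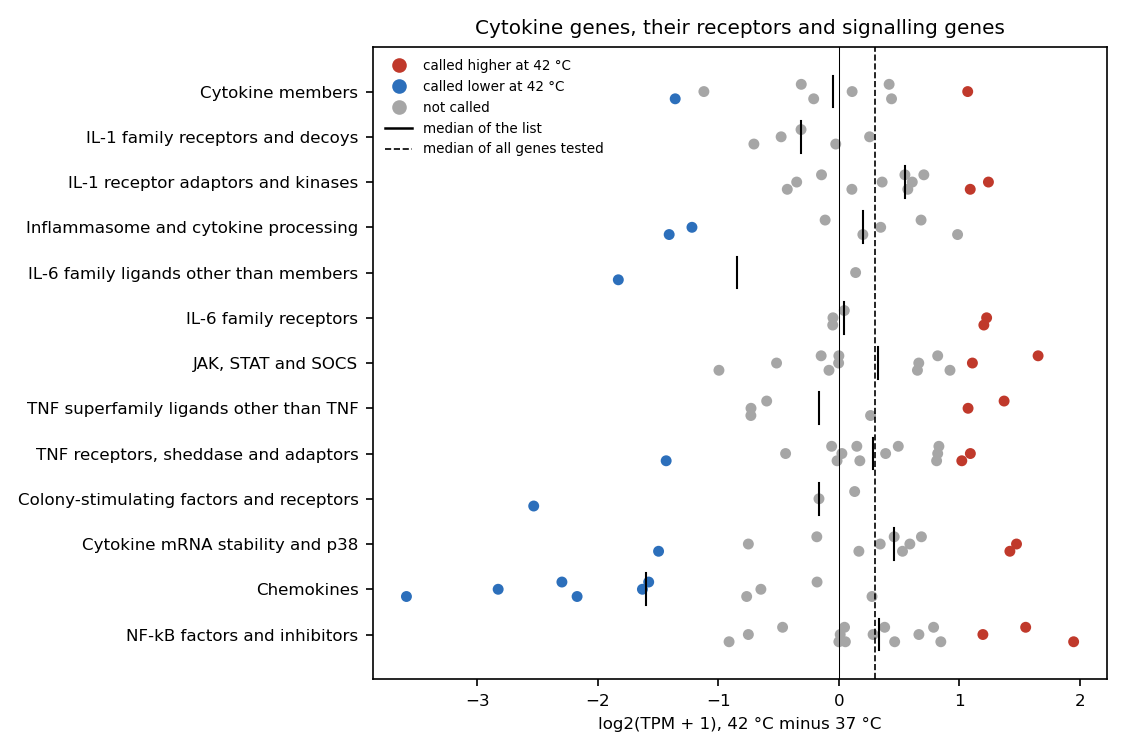
Difference of each tested gene on the log2(TPM + 1) scale, 42 °C minus 37 °C (horizontal axis), with the list's median as a short line. Rows are the 8 cytokine genes tested and those of the 13 lists fixed around them that held a tested gene. Chemokines (6 of 10 called lower) have the lowest median of the lists, at −1.60, and the dashed line is the median of all genes tested (0.30).

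The markers of the cells the cultures could hold were read beside these values. Among all genes tested, 15.8% were called higher and 7.14% lower. Of 10 epithelial markers tested, CLDN4 was called higher and KRT19 lower (1904 ± 876 and 5248 ± 1066 TPM), with a median difference of −0.17, and at an unadjusted p below 0.05 5 were higher and 4 lower. Their summed level was 8357 to 12,430 TPM in HS and 13,260 to 16,090 TPM in thermoneutral libraries, and most of it was the keratins KRT7, KRT8, KRT18 and KRT19, whose differences were all below 0 (−0.57 to −1.53). The adhesion genes EPCAM (1033 ± 152 and 657 ± 105 TPM, difference 0.66) and CDH1 (396 ± 45.5 and 201 ± 25.3 TPM, difference 0.98) went the other way without overlap between the groups, short of the size required for a call. The oviductal glycoprotein gene OVGP1, a marker of secretory oviduct cells, was under 1 TPM in every library. The paper reports OVGP1 protein in the organoids by immunostaining and describes the gene as stably expressed in both groups. PAX8, also of this list, averaged 88.68 TPM in HS and 75.17 TPM in thermoneutral organoids without overlap (difference 0.24, not called). FOXJ1, the paper's marker of ciliated cells, averaged 12.66 and 21.63 TPM with overlap (difference −0.645, not called). Whether secretory cells were missing was not tested. PTPRC, the pan-leukocyte marker, was listed at 0 in all 4 HS libraries and at most 0.171 TPM in thermoneutral libraries, ITGAM and CSF1R were listed at 0 throughout, and all 10 lymphocyte and neutrophil markers were under 1 TPM in every library. Of 11 macrophage and monocyte markers 3 were tested and 1, CD68, was called higher, with a median of −0.30 and a sum of 49.9 to 72.8 TPM in HS and 77.8 to 114 TPM in thermoneutral libraries, and CD14 was at 17.8 to 40.0 TPM in HS and 43.1 to 68.6 TPM in thermoneutral libraries. Of 8 fibroblast markers VIM and THY1 were tested and both were called lower (sum 31.2 to 182 TPM in HS and 274 to 570 TPM in thermoneutral libraries, median −2.50), with COL1A1 under 1 TPM, and neither of 2 endothelial markers tested was called by limma, 1 being higher and 1 lower at an unadjusted p below 0.05 (sum 10.7 to 13.2 and 11.7 to 17.1 TPM, median 0.08). The part of the VIM, THY1 and CD14 levels in the IL33 and IL1B values was not tested.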

How the data were processed

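RNA of 5 HS and 5 thermoneutral organoid replicates was sequenced in bulk. The deposited values are TPM, which per the study's methods the authors made in CLC Genomics Workbench on build ARS-UCD1.2 with TMM normalization. Every column sums to 1000000, so values are shares and depth is unknown. In the submitters' processing notes bcl2fastq, Bowtie2 2.2.2 and DESeq2 stand as well. Log2(TPM + 1) was fitted per gene with limma 3.58.1 (R 4.3.3, eBayes with trend, two-sided, Benjamini-Hochberg over 12,149 genes, or 45.3% of the table, reaching 1 TPM in 4 or more of 9 libraries) and with temperature as the only term. The study's methods name no block. Separate pools stand behind the replicates. The code was tested on simulated data. The members and lists were chosen with earlier results of these data known. Named were all 9 members, their receptors, up to 4 called genes with the largest differences per list, and the 3 genes most like each member. Others (SOCS3, IL18BP, NFKBIZ, EPCAM, CDH1, PAX8, FOXJ1, CAPN2, neighbours, inflammasome and caspase genes) were named after their values were seen.

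The lists held 142 symbols (137 in the table) beside the marker lists. Gene order came from RefSeq (ARS-UCD2.0, 9 of 9 members matched by symbol), whose coordinates and sequences were not used. Letters mark shared oviducts: deviations of same-letter libraries correlated at 0.131 (A), 0.240 (B), 0.375 (C), 0.278 (D) and 0.221 (E), and all 5 HS libraries were closest to their own letter. In the fit with this replicate block 37C B has no partner. Alternatives were other pseudocounts (0.1 and 5), filters, scalings and variance models, all 10 libraries, the block, and each library left out.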

Additional observations from a re-analysis of the deposited data

Results flagged for a closer look

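Of 18 groups examined (9 genes at 2 temperatures), 2 held a library far from the rest. At the 95% critical value used, chance gives about 5% of groups, a share that does not apply to IL6 at 42 °C, where the other 3 values are 0. IL1B in 37C D, at 15.9 TPM, was the highest of 5 thermoneutral libraries that otherwise lay between 4.84 and 7.77 TPM, its gap being 0.736 of the group's range. IL6 in 42C C, at 0.0902 TPM, was the only HS value above 0 in the 4 libraries compared.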

How the results depend on the processing

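Under 18 alternatives to the analysis, IL33 kept its direction and lost its call only with a pseudocount of 5, and was not tested among genes with a mean of 5 TPM or more. IL18 kept its direction and lost its call under 6, and IL1B kept its direction and gained a call under 4, all named above except the IL18 difference of 0.86 with a pseudocount of 5. IL1RN turned to −0.219 after median-ratio scaling, −0.231 after quantile normalization and −0.227 with all 10 libraries, and ranged from −0.008 (without 42C A) to 0.223 with 1 library left out, and none of these passed the threshold. The number of cytokine genes called was 0 with a pseudocount of 5, 1 among genes with a mean of 5 TPM or more, and 1 to 3 with 1 library left out. Its split was 0 higher and 2 lower after median-ratio scaling, after quantile normalization and with all 10 libraries. All genes called fell to 1371 with a pseudocount of 5. Median-ratio scaling gave 921 higher and 1433 lower and quantile normalization 981 and 1253, against 1915 and 867 as deposited. The cause was not tested. With the replicate block 2 cytokine genes were called, IL18 at a difference of 1 and IL33 at −1.27. Among the pathway genes BIRC3 lost its call under the block (0.97) and NFKBIZ gained one (−1.04), with no other change. Low TPM and unknown depth limit IL6, IL33, TNF and IL1A most.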
